A study of Mus musculus with 40 samples.

Results

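The replication-dependent histone genes of the mouse were followed in hematopoietic stem cells (HSCs) and in multipotent progenitors (MPPs) of WT mice and of mice labelled HIRA KO. Members were taken by symbol, as genes named Hist1h to Hist4h in the tables of the first cohort and as H1f1 to H1f6, H2ac, H2bc, H3c or H4c with a number (or Hist1h to Hist4h) in those of the second, with names carrying "-ps" left out. This gave 67 genes, of which 5 code for H1, 19 for H2A, 18 for H2B, 12 for H3 and 13 for H4. Of these, 63 were listed in both tables of the first cohort, among 26640 genes for HSCs and 26598 for MPPs. In the second cohort 58 were listed for GFP-high HSCs (of 16488 genes), 59 for GFP-low HSCs (of 16476), 60 for GFP-high MPPs (of 16491) and 58 for GFP-low MPPs (of 16344), and 56 genes were matched across both cohorts.

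All 40 RNA-seq libraries came from bone marrow of C57BL/6 mice, labelled WT or HIRA KO. By the protocol, poly(I:C), an interferon-inducing RNA that switches on Mx1-Cre, was given in 2 injections of 20 µg to every group. In the first cohort (16 libraries), 2500 HSCs or MPPs went into each library when 1 week had passed from the first injection, and each cell type had 4 WT and 4 KO libraries. In the H2B-GFP cohort (24 libraries), the protocol describes mice that carried TetOP-H2B-GFP and Rosa26-M2rtTA along with Mx1-Cre and Hirafl/fl. They drank doxycycline (2 mg/ml, in water with sucrose at 10 mg/ml) for 6 weeks, so that new chromatin carried H2B-GFP. A chase of 17 days without it followed, and 15 days lay between the last injection of poly(I:C) and the sort. Division dilutes the label, so GFP-high cells had divided less than GFP-low cells. HSCs and MPPs were each split into GFP-high and GFP-low cells, with 3 WT and 3 KO libraries for each of the 4 populations. Which of these alleles the WT mice carried, and the age of the mice, are not given in the sources used here. Mx1-Cre acts in many tissues besides blood. The mice of the second cohort carried an extra H2B gene as the GFP fusion, and its part in the values of the H2B members was not tested.

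Replication-dependent histone genes supply the bulk of the core histones H2A, H2B, H3 and H4 and of the linker histone H1 when DNA is copied in S phase. Most lie in clusters, have no introns, and give mRNAs that end in a conserved stem-loop instead of a poly(A) tail. The stem-loop binding protein SLBP governs their processing, translation and decay. Replacement histones such as H3.3, which HIRA places on chromatin outside replication, come instead mostly from single genes with polyadenylated mRNAs. The libraries were made from polyA RNA, so the values of the members show only the histone RNA that such libraries catch.

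Of the 67 genes, 53 lay on chromosome 13, 9 on chromosome 3, 2 on chromosome 11 and 1 on chromosome 6. For 61 of them the GENCODE M21 annotation (GRCm38) gave a transcript, and 38 of these transcripts held the stem-loop motif, searched as GGNNCT, then TTT, then NAGNNCC with no gap and with arms that pair. Some without a match are annotated short, such as those of H4c12 (312 bases), H2bc13 (381 bases) and H3c10 (411 bases). A missing match or poly(A) signal therefore does not show that the gene lacks it. A poly(A) signal (AATAAA or ATTAAA) stood in the last 40 bases of 15 transcripts, and 27 members shared at least 50% of their 50-base stretches with another member, so that reads of near-identical copies may have been divided among them. The following stem-loops, each with 5 bases on either side and read 5′ to 3′ with the motif in capitals, belong to members on which the results turn.
H4c4: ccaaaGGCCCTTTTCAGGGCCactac
H4c9: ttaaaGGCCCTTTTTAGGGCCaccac
H4c3: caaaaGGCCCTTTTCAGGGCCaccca
H2ac8: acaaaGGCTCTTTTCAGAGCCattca
H2ac4: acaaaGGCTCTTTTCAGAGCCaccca
H1f4: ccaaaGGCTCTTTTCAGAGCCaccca
H1f2: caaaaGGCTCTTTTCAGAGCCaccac
H3c7: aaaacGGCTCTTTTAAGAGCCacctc
In these examples the H4 genes shared 1 form of the stem, and the H2A, H1 and H3 genes another.

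The annotated transcripts of the same genes differed in how far they ran past the loop. H4c4 (Hist1h4d) is annotated at chr13:23581598-23582735 on the plus strand, with a transcript of 1138 bases that runs 770 bases past the loop. H4c9 (Hist1h4i, chr13:22040636-22041362, minus strand) runs 330 bases past it and has a poly(A) signal. H2ac8 (Hist1h2ae, chr13:23570517-23571220, minus strand) runs 151 bases past the loop and also has a signal, while H2ac4 (Hist1h2ab, chr13:23751126-23751598, plus strand) ends 11 bases after it. H1f4 (Hist1h1e, chr13:23620629-23622558, minus strand) continues for 1153 bases and H1f2 (Hist1h1c, chr13:23738808-23740367, plus strand) for 840 bases, the latter with a poly(A) signal. The annotated transcripts of H2bc4 (Hist1h2bc, chr13:23684199-23692908, plus strand), H1f1 and H1f5 held no match to the motif.

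Promoters of 54 members were found in RefSeq (GRCm38.p6), as windows from 250 bases before to 50 after the start. The octamer ATTTGCAT, counted on both strands, stood in 11 of the 54 (20.4%), all of them H2A (6 of 15) or H2B (5 of 13), against 1.75% of the 27025 promoters in RefSeq. CCAAT stood in 46 members (85.2%, against 37.9% of all promoters) and TATAAA in 33 (61.1%, against 14.2%). Among H4 promoters CCAAT stood in 3 of 11, and in every promoter of the other classes. The bases upstream of 3 members with different motif content, and with differences between WT and KO in both directions (below), are given 5′ to 3′ on the strand of the gene, with these motifs on either strand in capitals. They are chr13:23581318-23581567 for H4c4, chr13:23571221-23571395 for H2ac8, which is the whole stretch between its start and that of its divergent neighbour H2bc8, and chr13:23738557-23738806 for H1f2.
H4c4: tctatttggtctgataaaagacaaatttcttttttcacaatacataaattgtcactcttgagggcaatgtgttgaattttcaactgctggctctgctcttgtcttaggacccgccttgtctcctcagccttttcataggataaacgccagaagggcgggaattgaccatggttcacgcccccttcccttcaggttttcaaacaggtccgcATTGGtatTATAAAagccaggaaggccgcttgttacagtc
H2ac8: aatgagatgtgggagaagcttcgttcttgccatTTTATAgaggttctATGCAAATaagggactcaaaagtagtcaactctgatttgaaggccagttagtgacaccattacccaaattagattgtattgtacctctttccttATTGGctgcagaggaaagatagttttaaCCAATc
H1f2: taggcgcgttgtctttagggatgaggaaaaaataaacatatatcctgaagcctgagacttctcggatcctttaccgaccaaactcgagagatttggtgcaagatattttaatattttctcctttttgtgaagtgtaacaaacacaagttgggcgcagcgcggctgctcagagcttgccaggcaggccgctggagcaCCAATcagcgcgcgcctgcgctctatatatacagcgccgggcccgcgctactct
The octamer was found upstream of H2ac8 and in neither of the other two.

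Depth was recovered from the steps of the FPKM values (named for fragments per kilobase of gene per 1e6 fragments). It was 18.86 to 33.47 M reads (M is 1e6) per library in the first cohort and 8.8 to 16.02 M in the H2B-GFP cohort. Within each population every library had the same median log ratio to the genes' means over libraries. The values were therefore scaled by ratios between libraries and not to each library's own total. Hira itself did not separate the groups. Its log2 difference was -0.09 in HSCs, -0.11 in MPPs, -0.23 and -0.07 in GFP-high and GFP-low HSCs, and 0.13 and -0.19 in GFP-high and GFP-low MPPs, so the libraries are named by their label (labelled KO, shortened to KO). A value over the whole gene does not show whether the floxed part was missing. Of the HSC markers 8 of 8 were at measurable levels in the HSC tables, and of the MPP markers 3 of 3 in the MPP tables. The MPP markers were also measurable in each HSC table (3 of 3), and the HSC markers in each MPP table (7 of 8). These counts therefore do not tell the populations apart.

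Tests used limma on log2(FPKM + 1) over all genes with at least 1 FPKM in 4 libraries (first cohort) or 3 (H2B-GFP cohort), and the threshold was a p of 0.05 after Benjamini-Hochberg adjustment over those genes. Differences are KO minus WT on this log2 scale, which understates the change of low genes.

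In the first cohort no histone member passed the test, and most members had the higher mean in KO. Of 63 members the KO mean was lower in 14 in HSCs and in 15 in MPPs, while it was lower in 47.5% and 49.5% of all genes listed. Of 59 members tested in each cell type, 0 passed, where 0.124% of all tested genes passed in HSCs and 0.108% in MPPs. At an unadjusted p under 0.05, 3 members were higher and 0 lower in HSCs (4.87% and 5.21% of all genes). In MPPs 12 were higher and 0 lower (8.77% and 7.79% of all genes). The median log2 difference of the tested members was 0.10 in HSCs and 0.23 in MPPs. In libraries of sorted pools, more cells in S phase and more histone RNA per cell cannot be told apart.

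Single libraries moved these values. Without KO library 4 the HSC median was -0.0021, and with all libraries scaled to 1 total it was 0.03. The MPP median stayed above 0 when any 1 library was left out, at 0.14 (without WT library 1) to 0.28, but the 12 members became 3 without KO library 3, 4 without KO library 2, 5 without WT library 1 and 7 without WT library 2.

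Among the H4 genes, which code for the histone that pairs with H3 in the nucleosome core, Hist1h4n and Hist1h4m had the smallest p values of members in HSCs. Hist1h4n (chr13:21831767-21832196, minus strand) stood at 13.5, 10.2, 13.3 and 14 FPKM in the WT HSC libraries and at 17.8, 18.2, 20.1 and 24.6 FPKM in KO. Every KO library was above every WT library, with a log2 difference of 0.62 (SE 0.13, adjusted p = 0.13). In MPPs the WT libraries held 11.9, 12.4, 13.4 and 10.5 FPKM and the KO libraries 15.5, 23.5, 25.7 and 13, with overlap and a log2 difference of 0.60 (adjusted p = 0.186).

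Hist1h4m (chr13:21811746-21812147, plus strand) gave nearly the same picture. It held 13.8, 11.5, 14.4 and 17.2 FPKM in WT HSCs against 20.8, 20.5, 20.5 and 27.3 in KO HSCs, a log2 difference of 0.62 (adjusted p = 0.13) without overlap. In MPPs the log2 difference was 0.59 (adjusted p = 0.209) and the groups overlapped. Of their 50-base stretches, 85.6% of those of Hist1h4n and 89.8% of those of Hist1h4m occur in other members, so these values may share reads and are not independent.

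H4c9 and H4c3 code for the same core histone. In MPPs H4c9 stood at 20.9, 29.6, 34.3 and 27.6 FPKM in WT and at 37.2, 43.3, 51.2 and 35.2 in KO. The KO libraries were all above the WT libraries, with a log2 difference of 0.56 (adjusted p = 0.148), and in HSCs the difference was 0.15 with overlap. H4c3 held 12.3, 16.9, 14.4 and 12.9 FPKM in WT MPPs and 19.3, 24.6, 24.4 and 16.7 in KO MPPs, where KO library 4 fell just inside the WT range (log2 difference 0.55, adjusted p = 0.131), and differed by 0.36 in HSCs. Of no overlap between groups there were 2 members in HSCs (2.81% of all genes were higher in KO without overlap) and 1 in MPPs (5.08%), all higher in KO and all of class H4. With KO lower there were 0 in both (3.39% and 4.84% of all genes).

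**Figure D1:**
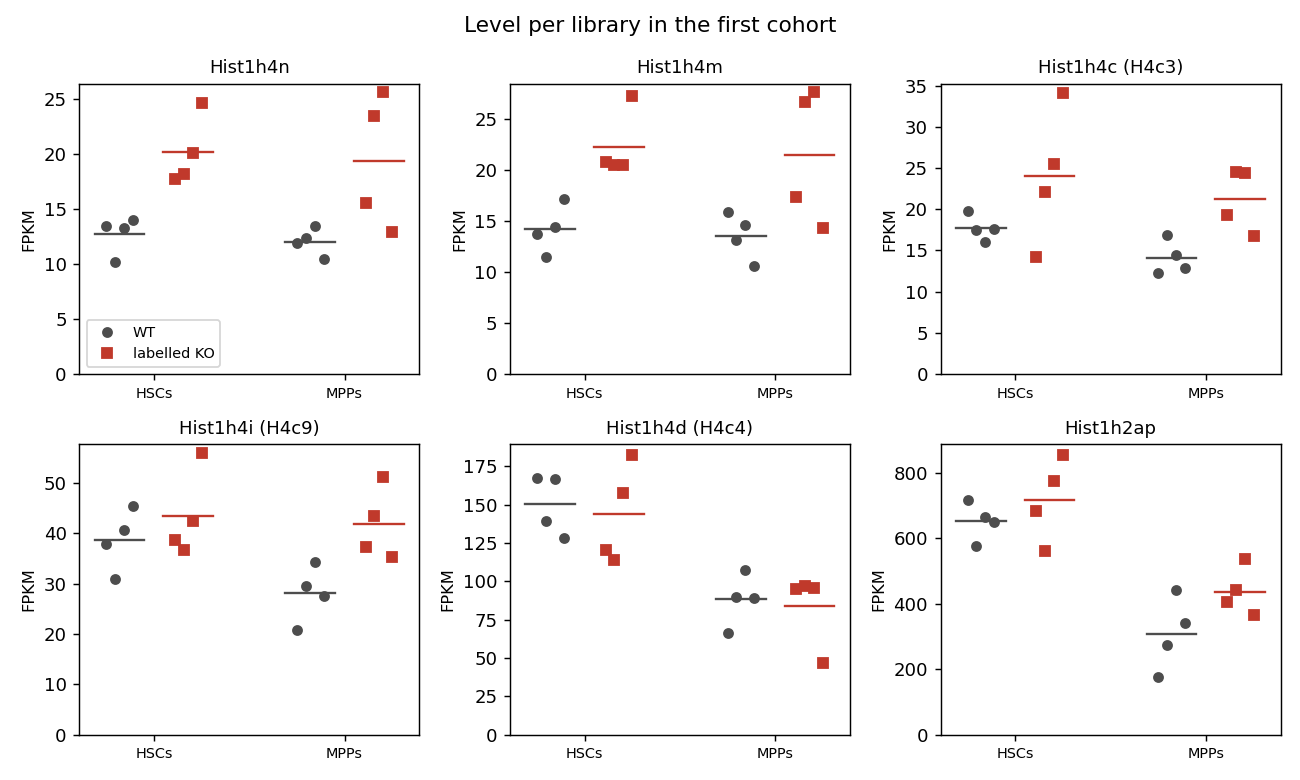
FPKM per library (vertical axis) of 6 members in the first cohort, HSCs and MPPs, with WT as grey circles, labelled KO as red squares and bars at group means. Hist1h4n and Hist1h4m separate WT from KO in HSCs and Hist1h4i (H4c9) does so in MPPs, while Hist1h4d (H4c4) and Hist1h2ap overlap in both cell types.

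H4c4 was the H4 gene of highest level in the first cohort, at a mean of 116.4 FPKM over its libraries. It held 167, 139, 166 and 128 FPKM in WT HSCs and 120, 114, 157 and 182 in KO HSCs, and 66.6, 89.8, 107 and 89.1 in WT MPPs against 95.2, 96.9, 95.6 and 46.7 in KO MPPs. The groups overlapped in both, with log2 differences of -0.08 and -0.12. These were 0.019 without KO library 2 in HSCs and 0.14 without KO library 4 in MPPs.

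The H2A genes held most of the histone signal of the first cohort. The highest were Hist1h2ap (chr13:21833026-21833507, minus strand) and Hist1h2ao (chr13:21810465-21810944, plus strand), whose values were almost the same library by library and which share 93.1% and 93.5% of their 50-base stretches with other members. Hist1h2ap held 719, 576, 666 and 649 FPKM in WT HSCs and 685, 563, 774 and 854 in KO HSCs (log2 difference 0.13, adjusted p = 0.783). In MPPs it held 175, 275, 441 and 341 FPKM in WT and 405, 442, 539 and 366 in KO (log2 difference 0.57, adjusted p = 0.284), again with overlap. H2ac8 and H2ac4 also overlapped in both cell types, at 30.4 to 147 FPKM for the first and 9.25 to 60.5 FPKM for the second.

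Members of the other classes overlapped between WT and KO as well. H2bc4, an H2B gene, ranged from 82.4 to 97.3 FPKM in WT HSCs and from 69.3 to 149 in KO HSCs, and from 81.4 to 151 in WT MPPs and 82.4 to 144 in KO MPPs. H2bc8, the neighbour of H2ac8, ranged from 29.5 to 49.2 FPKM over all 16 libraries. The H3 gene H3c15 (chr3:96238108-96239127, minus strand) held 39.1 to 47.5 FPKM in WT HSCs and 38.7 to 48.8 in KO HSCs, and 8.16 to 29.4 in WT MPPs and 8.99 to 22.5 in KO MPPs. H3c6 (chr13:23561534-23562369, minus strand) ranged from 8.5 to 19.0 FPKM in all. Of the H1 linker genes, H1f4 held 32.2 to 48.3 FPKM in WT HSCs and 24.8 to 38.3 in KO HSCs, H1f5 held 20.1 to 27.5 and 22.2 to 29.2, and H1f2 held 9.10 to 12.6 and 9.70 to 13.9. In MPPs H1f4 held 14.1 to 20.7 FPKM in WT and 10.5 to 16.9 in KO, H1f5 held 6.36 to 10.3 and 7.27 to 15.4, and H1f2 held 9.31 to 12.8 and 9.36 to 13.1.

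In the H2B-GFP cohort the members lay the other way. The KO mean was lower in 52 of 58 members in GFP-high HSCs and 38 of 59 in GFP-low HSCs. Among MPPs it was lower in 52 of 60 members in GFP-high and 45 of 58 in GFP-low cells. Among all genes listed the KO mean was lower in 49.9%, 48.1%, 47.2% and 49.8%. All 12 H3 members had the lower mean in KO in 3 of the 4 populations (9 of 12 in GFP-low HSCs), as did 14 of 15, 12 of 16, 14 of 16 and 15 of 15 H2A members in GFP-high and GFP-low HSCs and GFP-high and GFP-low MPPs. Of members without a poly(A) signal near the annotated transcript's end, 39 of 43, 29 of 43, 39 of 43 and 34 of 43 were lower in the same order. Of those with one, 8 of 10, 3 of 10, 8 of 11 and 7 of 10 were lower. The first group includes members whose transcripts are annotated short.

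By the test, 1 member passed in 1 population. H4c4 was lower in KO in GFP-low MPPs, where 0.32% of all tested genes passed and 1 of the 40 members tested did. In GFP-high HSCs 0 of 36 members tested passed (0.0276% of all genes), in GFP-low HSCs 0 of 40 (0%), and in GFP-high MPPs 0 of 34 (0%). At an unadjusted p under 0.05, limma gave 14 members lower and 2 higher in GFP-high HSCs (4.72% and 5.64% of all genes), and 12 lower and 1 higher in GFP-low HSCs (3.9% and 4.67%). It gave 16 lower and 3 higher in GFP-high MPPs (3.48% and 3.61%), and 15 lower and 2 higher in GFP-low MPPs (6.16% and 6.12%). The median log2 difference of tested members was -0.52, -0.36, -0.62 and -0.55 in these 4 populations. The groups did not overlap, with KO lower, for 11, 10, 13 and 11 of the tested members (7.47%, 6.42%, 6.59% and 9.33% of all genes), and with KO higher for 2, 0, 2 and 1 (8.61%, 7.67%, 6.74% and 9.73%). Members that passed the filter through the group in which they are high had to differ, so these medians and counts describe the tested members only.

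**Figure D2:**
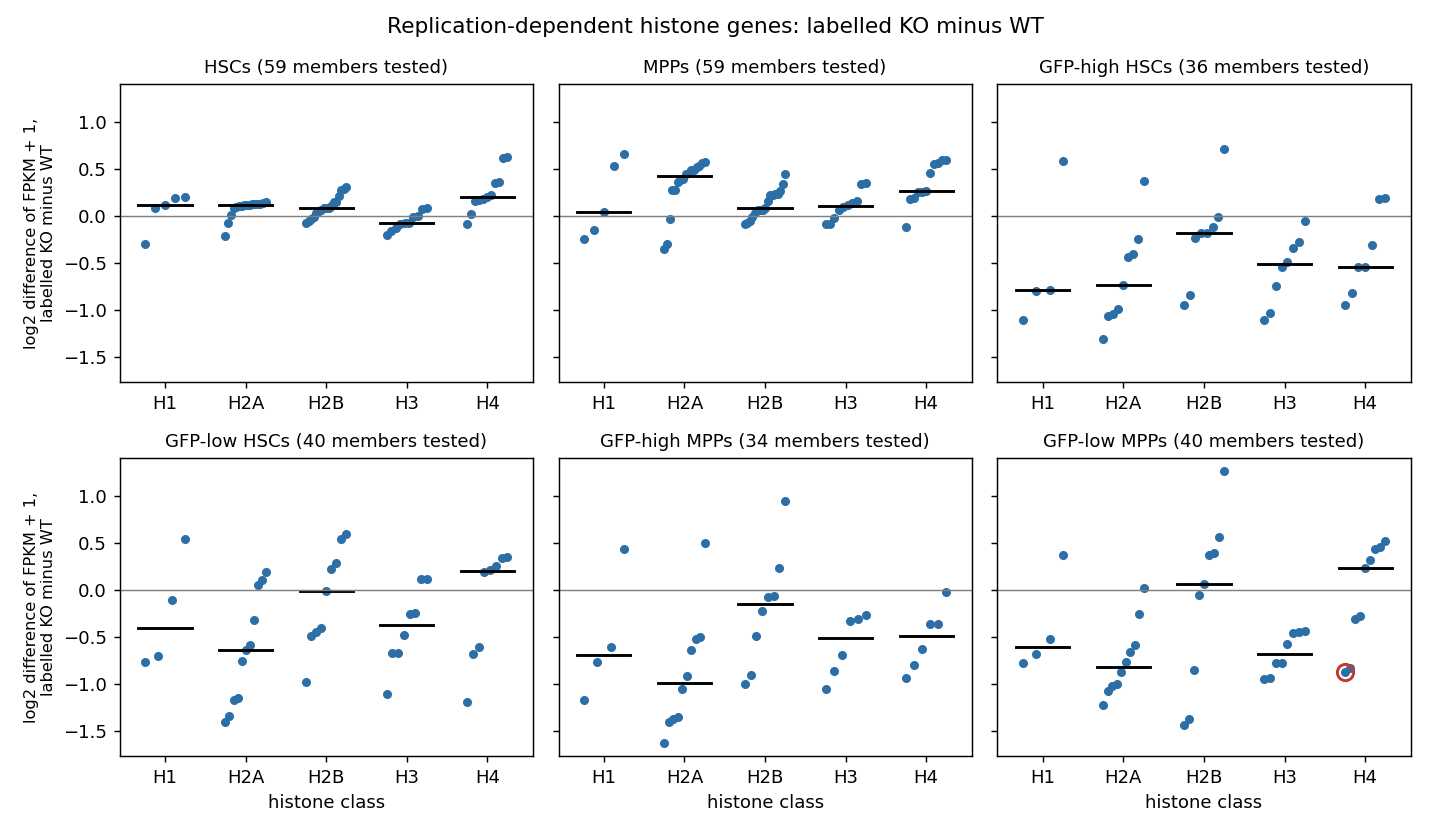
Log2 difference, KO minus WT on log2(FPKM + 1), of every tested member (points) by class in the 6 populations, with the class median as a black bar and a red ring around a member past the test. Points scatter about and above 0 in the first cohort and lie mostly below 0 in the H2B-GFP cohort, except for H2B and H4 in GFP-low cells, where they lie on both sides.

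The class medians in the H2B-GFP cohort differed in size. For H2A they were -0.74 and -0.64 in GFP-high and GFP-low HSCs, and -0.99 and -0.82 in GFP-high and GFP-low MPPs. For H1 they were -0.80, -0.41, -0.69 and -0.60 in the same order, and for H3 -0.52, -0.37, -0.51 and -0.68. For H2B they were near 0, at -0.18, -0.01, -0.15 and 0.06, and for H4 they were -0.54 and -0.50 in GFP-high HSCs and MPPs but 0.20 and 0.24 in the GFP-low cells. Differences between classes were not tested.

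H4c4 was below every WT library in every KO library of all 4 populations, which is called apart (no overlap) here. In GFP-low MPPs the WT libraries held 23.9, 23.7 and 21.1 FPKM and the KO libraries 13.4, 10.6 and 12.2, with means of 22.9 ± 1.53 and 12.1 ± 1.37 (SD, n = 3 each), from 113 to 369 reads per library. The log2 difference was -0.87 (SE 0.12, adjusted p = 0.035 by limma). In GFP-high HSCs the WT libraries held 25.3, 22.8 and 22.3 FPKM and the KO libraries 10.8, 15.4 and 12.4 (log2 difference -0.83, adjusted p = 0.122). GFP-high MPPs were alike, at 23.8, 21.5 and 18.6 FPKM in WT and 12.8, 10.4 and 12.2 in KO (-0.80, adjusted p = 0.238). In GFP-low HSCs the gap was smaller, with 26.6, 28.0 and 18.9 FPKM in WT and 15.3, 16.8 and 14.6 in KO (-0.61, adjusted p = 0.39).

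The call in GFP-low MPPs depended on single libraries. It was lost without WT library 1, 2 or 3 (adjusted p of 0.132, 0.189 and 0.136) and without KO library 2 or 3 (0.113 and 0.0801). It was kept without KO library 1, at an adjusted p of 0.0394.

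H2ac8, an H2A gene, was also apart in all 4 populations, with KO lower. It held 16.6, 26.8 and 18.5 FPKM in WT GFP-high HSCs against 10.9, 8.26 and 10.0 in KO, and 24.7, 32.8 and 18 against 9.55, 9.99 and 11.3 in GFP-low HSCs. Among GFP-high MPPs it held 15.3, 26.4 and 21.7 FPKM in WT against 6.56, 7.02 and 7.86 in KO, and in GFP-low MPPs 21.2, 31.7 and 20.4 against 17.5, 8.06 and 8.85. KO library 1 of the GFP-low MPPs, at 17.5 FPKM, was the nearest to the WT libraries. The log2 differences were -0.99, -1.18, -1.41 and -1.08 (adjusted p of 0.145, 0.168, 0.128 and 0.173), and without that KO library the last was -1.40 with an adjusted p of 0.0394.

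H1f4, a linker histone gene, was the third such member. It held 6.27, 7.05 and 4.77 FPKM in WT GFP-high HSCs against 4.21, 2.73 and 2.26 in KO, and 6.44, 7.67 and 5.20 against 3.66, 2.16 and 4.48 in GFP-low HSCs. Among GFP-high MPPs the values were 5.88, 6.57 and 5.56 FPKM against 2.63, 1.61 and 2.11, and in GFP-low MPPs 5.41, 9.12 and 5.20 against 4.73, 2.94 and 2.49. The log2 differences were -0.81, -0.77, -1.18 and -0.78, none past the test (adjusted p of 0.252, 0.447, 0.128 and 0.27). H1f5, another linker gene, differed by -0.79, -0.70, -0.77 and -0.68, and its groups were apart in GFP-high HSCs, where WT held 14.2, 15.1 and 7.00 FPKM and KO 6.59, 5.47 and 6.78. H1f1, also of the linker class, was apart in GFP-high HSCs, with 3.44, 2.85 and 4.06 FPKM in WT and 1.19, 0.623 and 1.44 in KO (-1.11, adjusted p = 0.137), on 5 to 33 reads per library.

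**Figure D3:**
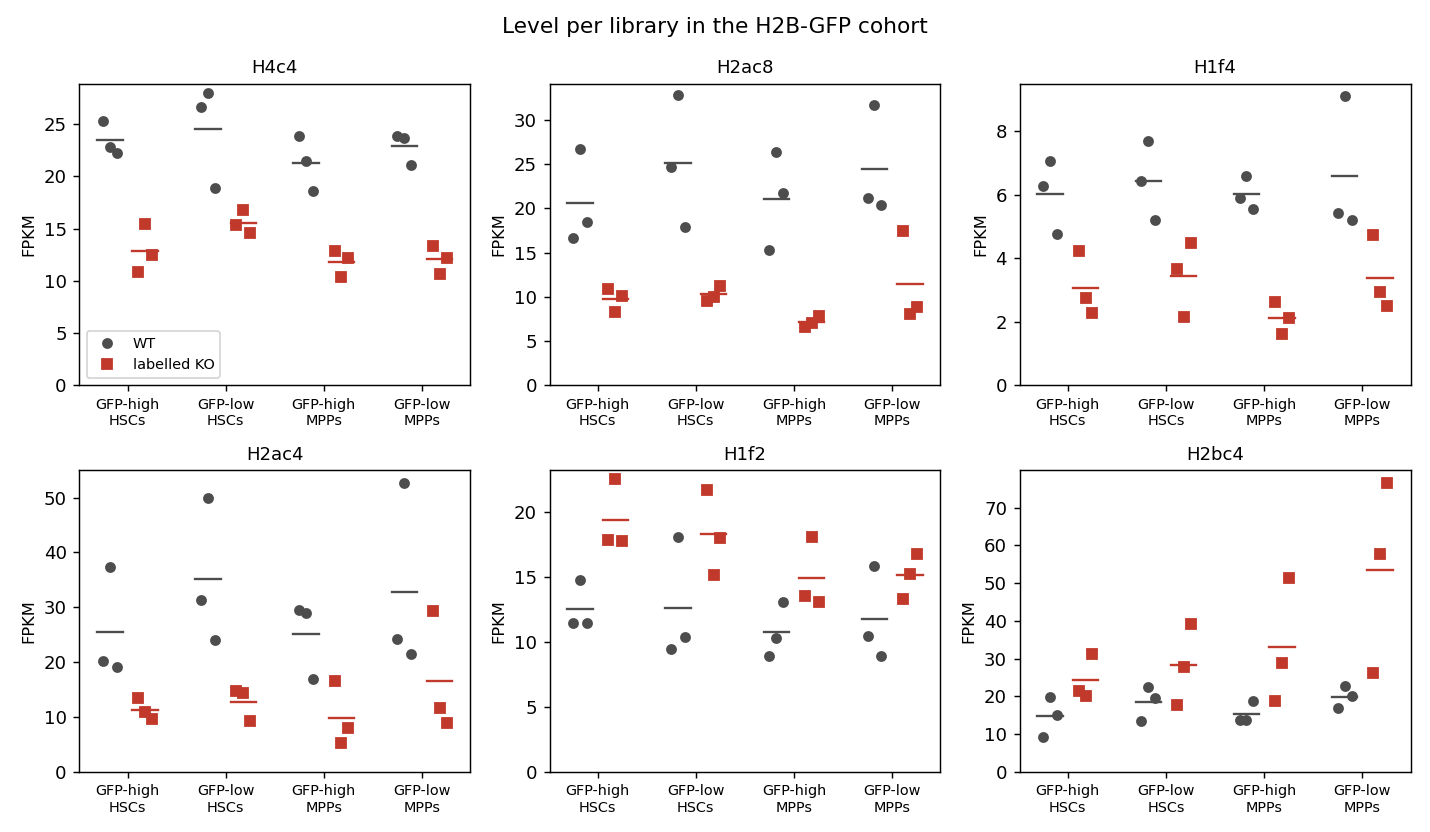
FPKM per library (vertical axis) of 6 members in the 4 populations of the H2B-GFP cohort, with WT as grey circles, labelled KO as red squares and bars at group means. H4c4, H2ac8 and H1f4 are lower in KO without overlap in all 4 populations, H2ac4 in 3 of them, while the means of H1f2 and H2bc4 are higher in KO.

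H2ac4, the H2A gene of highest level here, was apart in 3 of the 4 populations. It held 20.2, 37.4 and 19.1 FPKM in WT GFP-high HSCs against 13.5, 10.9 and 9.63 in KO, and 31.3, 49.9 and 24.1 against 14.7, 14.5 and 9.25 in GFP-low HSCs. Among GFP-high MPPs it held 29.4, 28.9 and 16.8 FPKM against 16.5, 5.23 and 7.96. In GFP-low MPPs KO library 1, at 29.3 FPKM, lay within the WT values of 24.3, 52.6 and 21.4, while the other KO libraries held 11.5 and 8.90. The log2 differences were -1.05, -1.35, -1.35 and -1.0 (adjusted p of 0.204, 0.216, 0.52 and 0.403). Of the 50-base stretches of H2ac4, 58.0% occur in other members, so its values may share reads with theirs. The share was 10.2% for H4c4, 43.2% for H2ac8, 32.0% for H1f4 and 73.4% for H3c6.

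Among the H3 genes, H3c13 (chr3:96268654-96269155) had the highest level, at a mean of 23.1 FPKM. Its log2 differences were -0.75, -0.67, -1.06 and -0.44. The first was -0.49 without KO library 1 and the second -0.41 without WT library 2, while the last ran from -0.77 without KO library 1 to -0.09 without WT library 2, and was -0.12 without KO library 3 and -0.77 without WT library 3. For this gene WT and KO were apart in GFP-low HSCs and GFP-high MPPs. Among GFP-high MPPs it held 22.6, 37.4 and 25.6 FPKM in WT against 17.6, 10.9 and 11 in KO. H3c7 (chr13:23544052-23545312, plus strand) was low but apart in GFP-low MPPs, at 1.75, 2.28 and 1.62 FPKM in WT and 0.353, 0.679 and 0.468 in KO (-0.94, adjusted p = 0.0879), on 6 to 36 reads. H3c6 ranged from 0.298 to 3.75 FPKM over the cohort and was apart in GFP-low MPPs, where WT held 2.99, 2.39 and 3.00 and KO 1.33, 1.41 and 1.91. H3c15, the H3 gene of highest level in the first cohort, was at 0 to 0.736 FPKM here and was not tested.

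Other H4 genes were of both kinds. The KO mean of H4c14, H4c3 and H4c2 was lower in all 4 populations, as for H4c4, without overlap in 3, 1 and 1 of them. H4c9, the H4 gene of highest level in this cohort, differed by 0.19 and 0.34 in GFP-high and GFP-low HSCs, and by -0.03 and 0.44 in GFP-high and GFP-low MPPs. In GFP-low MPPs it held 33, 46.8 and 34.5 FPKM in WT against 46.6, 50.2 and 58.0 in KO, so that only the lowest KO library fell inside the WT range. H4c3 was apart in GFP-low HSCs, at 3.58, 2.87 and 3.06 FPKM in WT and 0.810, 0.483 and 1.24 in KO (-1.19, adjusted p = 0.168), on 4 to 43 reads. Hist1h4n and Hist1h4m, which were apart in HSCs of the first cohort, stood at 0.213 to 5.37 FPKM and overlapped in all 4 populations.

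H2bc4 and H1f2 were the 2 members whose KO mean was higher in all 4 populations. H2bc4 held 16.8, 22.8 and 20.0 FPKM in WT GFP-low MPPs against 26.1, 57.8 and 76.5 in KO, and 13.7, 13.8 and 18.8 against 18.6, 28.8 and 51.3 in GFP-high MPPs. In GFP-high HSCs it held 9.22, 19.8 and 15.1 FPKM against 21.5, 20.0 and 31.3, and in GFP-low HSCs 13.5, 22.4 and 19.5 against 17.7, 27.8 and 39.2. The KO libraries spread widely, and the log2 differences of 1.27, 0.95, 0.72 and 0.55 did not pass (adjusted p of 0.181, 0.556, 0.386 and 0.642). Without KO library 1 the difference in GFP-low MPPs was 1.70 with an adjusted p of 0.0137.

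H1f2 held 11.4, 14.7 and 11.5 FPKM in WT GFP-high HSCs and 17.8, 22.5 and 17.8 in KO, and 9.45, 18 and 10.4 against 21.7, 15.1 and 18 in GFP-low HSCs. Among GFP-high MPPs it held 8.88, 10.3 and 13 FPKM against 13.5, 18.1 and 13.1, and in GFP-low MPPs 10.4, 15.8 and 8.87 against 13.3, 15.2 and 16.7. Its groups were apart in the GFP-high cells and overlapped in the GFP-low cells, with log2 differences of 0.59, 0.54, 0.44 and 0.37 (adjusted p of 0.239, 0.583, 0.666 and 0.473). H2bc8 was not alike in the 4 populations. It overlapped in both HSC populations and was apart in both MPP populations. In GFP-high MPPs it held 16.8, 14.3 and 33 FPKM in WT and 5.28, 13.9 and 14.2 in KO, and in GFP-low MPPs 11.7, 15.0 and 27.6 FPKM in WT and 2.52, 9.53 and 6.81 in KO (log2 difference -1.44, adjusted p = 0.22).

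Across the 4 populations, 58 members and 15134 genes in all were listed in every table. The KO mean was lower in all 4 for 29 members (50%) and for 14.1% of all genes, and higher in all 4 for 2 members (3.45%) against 15.3%. The groups were apart with KO lower in all 4 for 3 members (5.17%), which were H4c4, H2ac8 and H1f4, against 0.251% of all genes. In at least 3 of the 4 this held for 8 members (13.8%), with H2ac4, H2ac10, H4c14, H3c14 and H2ac18 besides, against 1.07%. Libraries of the same genotype and number deviated together across the 4 tables, so the populations may come from the same mice and are not independent. Leaving out WT library 3 of each table raised the 3 members to 7, and leaving out KO library 2 raised them to 5. Leaving out a library can only keep or raise such a count, and the share of all genes was not counted for it.

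The tables were scaled separately, so levels between populations are set side by side as the members' summed FPKM per 1e6 of the library's total, without a test. The members summed to 4850 to 4978 per 1e6 in WT HSCs and 4128 to 5760 in KO HSCs, and to 1723 to 3291 and 2974 to 3613 in WT and KO MPPs. The sums were smaller in the H2B-GFP cohort, at 715 to 986 and 558 to 756 in GFP-high HSCs and 952 to 1309 and 778 to 861 in GFP-low HSCs. Among MPPs they were 869 to 933 and 550 to 753 in GFP-high cells, and 874 to 1371 and 881 to 931 in GFP-low cells. WT and KO were apart in GFP-low HSCs and GFP-high MPPs, and the log2 ratio of the means was -0.42, -0.43, -0.48 and -0.23. The last rested on WT library 2, without which it was 0.0030 in GFP-low MPPs, and without WT library 2 of the GFP-low HSCs the ratio there was -0.27.

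Among the classes, H2A and H3 had the lowest ratios of KO to WT sums. For H2A the WT and KO ranges were 187 to 308 and 107 to 135 per 1e6 in GFP-high HSCs and 250 to 402 and 142 to 160 in GFP-low HSCs. Among MPPs they were 209 to 265 and 72.0 to 120 in GFP-high cells, and 208 to 434 and 105 to 230 in GFP-low cells. In GFP-high HSCs, H2ac12 made up 24.8 of the 83.2 FPKM of H2A in WT library 3. In the other libraries of that population it held 0 to 0.718 FPKM. Its value is part of the sum over all members as well. For H2A the log2 ratios were -1.10, -1.10, -1.28 and -1.01, with overlap in GFP-low MPPs alone. Leaving out 1 library gave -1.27 to -0.93 in GFP-high HSCs. For H3 the log2 ratios were -0.75, -0.63, -0.90 and -0.64, again with overlap in GFP-low MPPs alone. Without WT library 2 the ratios in GFP-low MPPs were -0.66 for H2A and -0.36 for H3, and without KO library 3 the latter was -0.39. That of H3 in GFP-low HSCs was -0.41 without WT library 2. For H1 the log2 ratios were smaller, at -0.12, -0.25, -0.22 and -0.28, and the groups were apart in GFP-high MPPs alone, at 90.6 to 102 per 1e6 in WT and 77.2 to 87.5 in KO. The sums of H2B overlapped in all 4 (log2 ratios of 0.17, 0.03, 0.14 and 0.46), as did those of H4 (-0.25, -0.10, -0.32 and 0.07). In the first cohort WT HSCs held 3639 to 3737 per 1e6 of H2A and WT MPPs 950 to 2301, so each WT HSC library was above each WT MPP library.

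**Figure D4:**
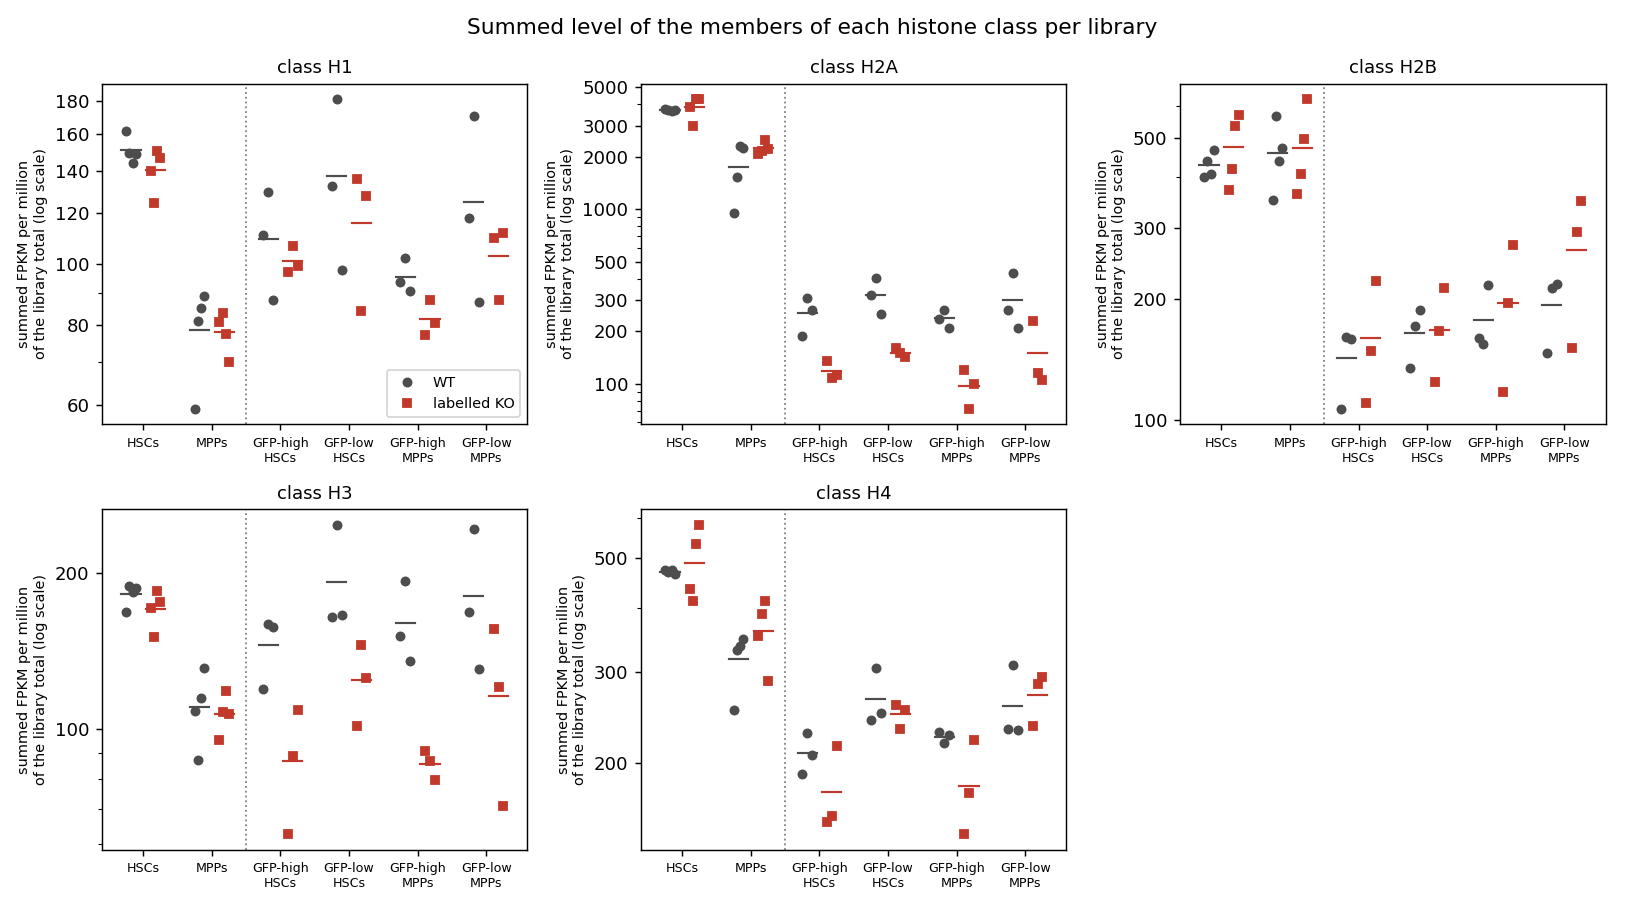
Summed FPKM of the members per 1e6 of the library total (log scale) by class in the 6 populations, with WT as grey circles, labelled KO as red squares, bars at group means and a dotted line between the cohorts. H2A and H3 of the H2B-GFP cohort are lower in KO, without overlap in all but GFP-low MPPs, and H2B overlaps throughout.

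The level of single genes also differed between cohorts. Hist1h2ap, at a mean of 529.4 FPKM in the first cohort, was matched to no gene of the H2B-GFP tables, and Hist1h2ao had a mean of 529.1 FPKM in the first cohort and 2.59 FPKM in the second. The tables were processed separately, and how each divided reads among near-identical copies is not given in the sources used here. Genes that share fewer stretches with other first-cohort members were not alike. H4c9, with 28.9% of its stretches shared, held means of 38.0 and 36.7 FPKM, and H1f2 (8.54%) held 11.6 and 14.4 FPKM. H3c15 (7.0%) held 31.7 FPKM in the first cohort and 0.227 FPKM in the second, and H4c3 (19.6%) held 19.3 and 2.57 FPKM. The shares leave out members listed only in the H2B-GFP cohort, such as the H3 genes H3c13 and H3c14 on chromosome 3. The 7.0% of H3c15, on the same chromosome, therefore does not cover stretches shared with them. The part of shared stretches in the differences of level between cohorts was not tested.

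Differences of the KO effect between populations were tested in 5 pairs, and 0 members passed in any of them. All genes passed at 0.0468% for MPPs minus HSCs of the first cohort, 0% for GFP-low minus GFP-high HSCs, 0.0178% for GFP-low minus GFP-high MPPs, and 0% for MPPs minus HSCs in GFP-high and in GFP-low cells. The members at an unadjusted p under 0.05 by limma were 1 of 60, 4 of 45, 1 of 44, 2 of 42 and 3 of 46 (7.95%, 3.48%, 2.81%, 2.8% and 4.62% of all genes). For H1f1 the KO effect in GFP-low HSCs was above that in GFP-high HSCs by 1.0 (SE 0.26, adjusted p = 0.999). The KO effect was tested within each cohort, and the difference between the cohorts was not tested.

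Genes of DNA replication, which are expressed in S phase as the members are, were taken from a list of 21. The list was lower in KO in 19 of 21 genes in HSCs and higher in 20 of 21 in MPPs of the first cohort, with median log2 differences of -0.13 and 0.41. In the H2B-GFP cohort it was lower in 21, 18, 19 and 16 of 21 genes in GFP-high and GFP-low HSCs and GFP-high and GFP-low MPPs, with medians of -0.30, -0.26, -0.30 and -0.15. No gene of the list passed in any population. At an unadjusted p under 0.05 limma gave 6 lower in HSCs (5.21% of all genes) and 11 higher in MPPs (8.77%). In the GFP populations it gave 9, 1, 7 and 4 lower (4.72%, 3.9%, 3.48% and 6.16% of all genes). It gave 0, 1, 0 and 1 higher there (5.64%, 4.67%, 3.61% and 6.12%). Rrm2, a subunit of ribonucleotide reductase, held 24.5, 28.9, 44.5 and 29.7 FPKM in WT MPPs and 54.6, 64.4, 69.3 and 59.5 in KO MPPs, without overlap (log2 difference 0.97, adjusted p = 0.0514). The summed FPKM of the list was 564 to 610 in WT and 426 to 545 in KO GFP-high HSCs and 767 to 812 and 616 to 811 in GFP-low HSCs. Among MPPs it was 580 to 639 and 405 to 628 in GFP-high cells, and 779 to 828 and 622 to 795 in GFP-low cells. The part of these differences in those of the histones was not tested.

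Genes that process or degrade histone mRNA showed no common direction. Of 19 tested, 9 were higher and 10 lower in HSCs and in MPPs, and 10 and 9, 4 and 15, 9 and 10, and 10 and 9 in the 4 GFP populations, with 0 past the test. Slbp, which codes for the stem-loop binding protein, held 31.4, 29.9, 33.2 and 26.6 FPKM in WT MPPs and 43.4, 48.0, 53.8 and 46.4 in KO MPPs. Every KO library was above every WT library (log2 difference 0.65, adjusted p = 0.0514). Its differences elsewhere were 0.05 in HSCs and -0.11, 0.03, 0.15 and 0.30 in the GFP populations. Replacement histones were higher in KO in 8 of 10 tested genes in HSCs and 8 of 9 in MPPs. They were higher in 3 of 9, 8 of 10, 6 of 10 and 6 of 10 in the GFP populations, with 0 past the test. H3f3a, a gene for H3.3, differed by 0.31 in HSCs and by 0.36, 0.51, 0.37 and 0.45 in the 4 GFP populations.

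Other measures moved with the labels in the H2B-GFP cohort. Ribosomal RNA, which like most histone mRNA has no poly(A) tail, took 36.3% to 40.7% of the reads of WT and 30.1% to 37.2% of KO GFP-high HSCs, and 35.4% to 38.9% and 29.5% to 36.3% of GFP-low HSCs. Among MPPs it took 36.1% to 42.7% and 22.8% to 36.0% in GFP-high cells, and 34.3% to 39.5% and 26.2% to 35.3% in GFP-low cells. KO library 3 was the lowest in each. In the first cohort the shares were 3.64% to 5.11% and 3.54% to 3.99% in HSCs and 2.91% to 3.72% and 1.90% to 2.64% in MPPs. The part of this share in the histone values was not tested.

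Markers of other blood cells were also measured. The summed FPKM of 6 erythroid markers was 270 to 441 in WT and 633 to 2426 in KO GFP-low HSCs, with 6 of 6 higher in KO, and 590 to 1369 and 1297 to 2011 in GFP-low MPPs, again with 6 of 6 higher. Of these Epor, the erythropoietin receptor, passed the test in GFP-low MPPs, at 8.40, 6.76 and 7.14 FPKM in WT and 18.3, 18.9 and 23.2 in KO (log2 difference 1.32, adjusted p = 0.0228). In GFP-high HSCs it was 488 to 1247 and 340 to 842, with 1 of 6 higher, and in GFP-high MPPs 219 to 656 and 269 to 1369, with 5 of 6 higher. In the first cohort it was 296 to 1566 and 298 to 3620 in HSCs, with 3 of 6 higher. Among MPPs of that cohort it was 147 to 2797 and 817 to 5057, with 6 of 6 higher. The sum of 7 neutrophil markers reached 28433 in 1 KO library of GFP-low HSCs and 23829 in 1 of GFP-high MPPs, above the WT maxima of 4077 and 5643. In these populations 6 of 7 and 7 of 7 were higher in KO. In GFP-high HSCs 6 of 7 were lower in KO, with sums of 5716 to 7384 in WT and 4290 to 5341 in KO. In GFP-low MPPs 5 of 7 were lower, as were 5 of 7 in HSCs and 4 of 7 in MPPs of the first cohort. All 4 megakaryocyte markers were higher in KO in HSCs of the first cohort, where they summed to 918 to 1139 FPKM in WT and 1241 to 1689 in KO, and Ppbp, a platelet chemokine, passed the test. They were also higher in 4 of 4 in GFP-high HSCs (96.5 to 110 against 120 to 187) and in GFP-low HSCs (162 to 263 against 414 to 467), without overlap of the sums. In MPPs 1 of 4 was higher in the first cohort and 3 of 4 in each of the GFP populations. Of the macrophage markers tested in HSCs of the first cohort, 4 of 4 were higher in KO, with sums of 14.9 to 22.3 FPKM in WT and 30.7 to 32.8 in KO. In MPPs of that cohort 4 of 5 were higher. In the H2B-GFP cohort 1 of 3 was higher in GFP-high and in GFP-low HSCs, 4 of 4 in GFP-high MPPs and 3 of 5 in GFP-low MPPs. Of the B cell markers tested, 2 of 2 were lower in KO in HSCs and in MPPs of the first cohort and in GFP-high HSCs. In GFP-high and in GFP-low MPPs 3 of 3 were lower, and in GFP-low HSCs 2 of 2 were higher. T cell markers summed to at most 2.26 FPKM in any library. Their part in the differences of the histone genes was not tested.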

How the data were processed

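RNA-seq was compared between WT and labelled KO in 6 populations, as given by the sample titles. Per the labels' protocols, RNA was reverse transcribed and amplified with SMART-Seq2 and cut with Nextera XT; the labels name polyA RNA, and whether strand was kept is not given in the sources used here, so overlapping genes are uncertain. The deposited tables, 1 per population, hold FPKM computed by the authors per gene and library. The submitters' processing notes name STAR, DESeq2, HOMER and mm10, with no role. No counts were used in a test. Reads were recovered from the FPKM steps (within 0.01 of a whole number) to give the depth and the reads behind a value.

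Each table was fitted alone with limma 3.58.1 (R 4.3.3) on log2(FPKM + 1), with an intensity trend, two-sided, over genes at 1 FPKM or more in 4 libraries (first cohort) or 3 (H2B-GFP cohort), and adjusted by Benjamini-Hochberg over all genes tested. The fit was tested on simulated data. Differences of KO effects were fitted over 2 tables. Members and lists were chosen with earlier results of these data known. Genes named were the 2 members of highest mean per class in the first cohort, the highest per class in the other, any past the test, and per comparison the 2 of smallest p without overlap; other members printed in single comparisons were chosen after their values were seen. Nothing says that libraries of a group came from separate mice, so p-values measure the spread between these libraries, which may be technical. No 2 libraries of a group agreed within counting noise. As a set, WT and KO libraries of the same number did not deviate together (correlations of -0.116 to 0.285 over 20 pairs, 7 of them best with their own number). Numbers were therefore not used to pair them in the main fit. Number 4 of the first cohort's MPPs had the 0.285 and was best with its own number, so shared variation there is possible. Counts with a replicate block are given below. Libraries of the same genotype and number deviated together across the 4 GFP tables.

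Transcripts and coordinates came from GENCODE M21 and promoters from RefSeq (GRCm38.p6). Alternatives were another pseudocount, other filters, no trend, array weights, 1 total per library, a replicate block, leaving out each library, and sums without the highest member of each class.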

Additional observations from a re-analysis of the deposited data

Results flagged for a closer look

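In 4 of the 96 groups of 4 libraries examined for the named members and the class sums of the first cohort, 1 library stood apart, by Dixon's test at its 95% critical value. Chance gives about 1 group in 20. In MPPs KO library 4 was low for H3c15 (8.99 FPKM against 21.5 to 22.5 in the other KO libraries), for H4c4 (46.7 against 95.2 to 96.9) and for H2ac8 (42.6 against 62.3 to 63.4). In HSCs KO library 4 was high for Hist1h4m (27.3 FPKM against 20.5 to 20.8).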

How the results depend on the processing

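The call of H4c4 in GFP-low MPPs, the 1 member past the test there, held in 6 of 13 alternatives, with adjusted p of 0.0314 to 0.189 and log2 differences of -0.94 to -0.79. With no filter or no trend 0 members passed there, with the replicate block 2 (H4c4, adjusted p = 0.0425, and H3c11, adjusted p = 0.0445), and leaving out 1 library gave 0 to 3. In GFP-high MPPs leaving out 1 library gave 0 to 1 members, the 1 being H2ac20 without KO library 1. The replicate block changed no other count of members; over all genes it gave 10, 137, 2, 0, 0 and 52 calls in HSCs, MPPs, GFP-high HSCs, GFP-low HSCs, GFP-high MPPs and GFP-low MPPs, against 17, 15, 3, 0, 0 and 34. Leaving out 1 library gave 0 to 205 calls over all genes in MPPs and 0 to 31 in GFP-low MPPs.

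The median of tested members was -0.79, -0.35 and -0.75 in GFP-high HSCs with a pseudocount of 0.1, no filter, and 1 FPKM in every library, and -0.87, -0.44 and -0.79 in GFP-high MPPs. Leaving out 1 library gave -0.54 to -0.11 in GFP-low HSCs (the last without WT library 2), -0.74 to -0.49 in GFP-high MPPs and -0.80 to -0.41 in GFP-low MPPs. Without the highest member of each class (H1f2, H2ac4, H2bc4, H3c13 and H4c9) the log2 ratio of sums over all members was -0.79, -0.66, -0.88 and -0.75. These are for GFP-high HSCs, GFP-low HSCs, GFP-high MPPs and GFP-low MPPs. Of the genes left out, H2bc4 and H1f2 had the higher mean in KO in every one of these populations. An alternative chosen after seeing the data left out members that share at least 50% of their 50-base stretches. Members with no share counted, such as H3c13, were kept. Of the members left, 19 had the lower mean in all 4 tables (14.1% of all genes). These members are fewer than the 58 above, so the 19 cannot be set directly against 29 of 58. With all members, 3 to 7 did not overlap when 1 numbered library was left out, a step that can only keep or raise this count.

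Of single members, H4c9 in GFP-high MPPs turned to 0.072 with 1 total per library, and leaving out 1 library gave -0.21 to 0.10 there and -0.0038 to 0.33 in GFP-high HSCs. For H4c4 it gave -0.21 to 0.019 in HSCs and -0.24 to 0.14 in MPPs. Leaving out 1 library also moved these values by over 1.5 times: H2ac4 in GFP-low MPPs (-0.61 without WT library 2), H1f5 in GFP-low HSCs (-0.33 without KO library 2, -0.44 without WT library 2, -1.07 without WT library 3) and GFP-low MPPs (-0.40 without KO library 2, -0.42 without WT library 2), and Hist1h2ap in MPPs (0.32 without WT library 1). H4c3 in HSCs was 0.17 without KO library 4 and 0.58 without KO library 1, H4c9 in GFP-low HSCs was 0.21 without WT library 1, and H1f2 in GFP-low MPPs was 0.21 without WT library 3 and 0.59 without WT library 2. H2bc4 was 0.44 in GFP-high HSCs without WT library 1, 0.58 in GFP-high MPPs without KO library 3, and 0.28, 0.34 and 0.83 in GFP-low HSCs without KO library 3, WT library 1 and KO library 1. The causes were not tested. Leaving out members with identical proteins was not run, since protein sequences were not used here. Depth limits members at few reads, such as H1f1, H3c7 and H4c3 in the H2B-GFP cohort.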
